A study of Mus musculus and Homo sapiens with 34 samples.

Results

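The mucin family was followed through RNA sequencing of mouse and human lung adenocarcinoma cultures in which the transcription factor HNF4A was removed or induced, or which were treated with the inhibitors trametinib or MRTX1133. The members were taken by gene name: Muc1, Muc3, Muc4, Muc5ac, Muc5b, Muc6, Muc13, Muc15, Muc16 and Muc20, written in upper case for the human lines. Of these 10 names, 9 had a row in at least 1 of the 7 count tables, 8 in a mouse table and 8 in a human table, and the tables together list 48431 distinct Ensembl genes, mouse and human genes counted separately. Muc6 in both species, MUC3 in the human lines, Muc15 in the mouse cultures, Muc5ac in 3311 and Muc16 in the mouse cultures other than the 2-week 3154 experiment were not analysed here.

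The study held 34 libraries in 17 groups of 2. The 3154 lung organoids carried p53frt together with Rosa-FSF-CreERT2 and Hnf4aflox, in the ethanol and the 4-hydroxytamoxifen (4OHT) groups alike, so 4OHT could activate the Cre recombinase and delete Hnf4a. They were exposed for 2 days to ethanol or 4OHT (2 mM per the labels) and harvested 2 weeks later, or, in another experiment, treated with ethanol or 4OHT and with vehicle or 3 nM of the inhibitor MRTX1133 for 48 hours. For that experiment the labels give 48 hours for the treatment as a whole and no separate time between 4OHT and harvest. The 1027B lung organoids and the 3311 lung cell line carried the same p53 and CreERT2 alleles with Foxa1flox and Foxa2flox, and no agent that deletes Foxa1 or Foxa2 is named for them. Treatment lasted 48 hours and was with vehicle, trametinib (a MEK inhibitor) at 10 nM or MRTX1133 at 20 nM in 1027B, and with vehicle or trametinib at 50 nM in 3311. H358 and H1651 are established human lung adenocarcinoma lines, kept for 48 hours in vehicle or in trametinib at 20 nM. H1651 with a lentiviral HNF4A construct was also kept for 7 days with or without 1 µg/mL doxycycline, and the labels give the construct as a genotype for the doxycycline group only. Each mouse culture is 1 line, and the labels do not say that replicates came from separate cultures, so p-values here measure the spread between these libraries, which may be technical.

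Mucins are large, heavily O-glycosylated proteins of epithelial surfaces. Muc5ac, Muc5b and Muc6 are secreted and build gels: Muc5b and Muc5ac are the main polymers of airway mucus, and Muc5ac and Muc6 are also the mucins of the gastric surface and the gastric glands. The other members are anchored in the plasma membrane by a transmembrane segment, where they form part of the glycocalyx and can take part in signalling, and Muc13 is best known from the intestinal epithelium. HNF4A is a nuclear receptor of the gut and liver lineages that is also found in mucinous lung adenocarcinoma.

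The mouse genes were placed on GRCm38 with the GENCODE M21 annotation, and all are protein coding. Muc13 is at chr16:33794037-33819934 on the plus strand, Muc5ac at chr7:141788972-141819231 (plus), its neighbour Muc5b at chr7:141839070-141873084 (plus) and Muc1 at chr3:89229057-89233381 (plus). Muc4, at chr16:32735886-32782391 (plus), and Muc20, at chr16:32777419-32797435 (minus), overlap at their ends, so that 15.6% of the exon bases of Muc20 and 5.33% of those of Muc4 lie opposite the other gene, and 6.06% of Muc13 exon bases lie opposite Gm15657. The libraries were strand-specific, but the strand setting of the counting is not given in the sources used here, so reads in those stretches cannot be assigned to 1 gene with certainty. No exon base of Muc1, Muc3, Muc5ac, Muc5b or Muc16 was shared with another gene.

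Muc13, the member with the largest change after Hnf4a deletion, has 2 start sites in the RefSeq promoter table (build GRCm38.p6), and the bases before each are shown because the data bear on its transcription. The stretch before the second start is cut where annotated exons of the gene begin. Capitals mark matches, on either strand, to the letters CAAAGTC (core of HNF4 sites), TGANTCA (AP-1) and CAAGTG (NKX2-1).
Muc13 start 1, chr16:33793787-33794036, plus strand: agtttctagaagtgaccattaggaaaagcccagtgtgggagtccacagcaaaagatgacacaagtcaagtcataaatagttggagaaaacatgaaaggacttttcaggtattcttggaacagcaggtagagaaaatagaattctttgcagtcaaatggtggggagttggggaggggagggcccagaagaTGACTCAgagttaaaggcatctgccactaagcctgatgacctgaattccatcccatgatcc
Muc13 start 2, chr16:33794239-33794366, plus strand: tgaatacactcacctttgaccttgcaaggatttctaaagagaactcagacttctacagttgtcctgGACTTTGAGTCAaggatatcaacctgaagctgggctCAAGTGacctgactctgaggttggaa
The HNF4 letters lie on the minus strand 184 bases before the second start and run into the AP-1 letters at 179 bases, so the capitals there hold both, and the NKX2-1 letters begin 148 bases before that start. Of 32851 promoters in the table, 3.84% held the HNF4 letters within 250 bases upstream, 6.75% the AP-1 letters and 11.6% the NKX2-1 letters. Further letters were searched, among them forkhead (TGTTTAC, in 3.17% of promoters) and ETS (CCGGAAG, 6.91%), of which forkhead was found 248 bases before the start of Muc20. Matches in the cut part of the second Muc13 stretch are not reported here. The members in the table were 7 genes with 8 starts, and the HNF4 letters were found upstream of no other start among them. Upstream of Muc1, Muc4 and Muc16 none of these letters were found, and Muc3 and Muc6 held the NKX2-1 letters. The Muc3 start in the promoter table (chr5:137166046, minus strand) lies outside the GENCODE M21 gene used here, whose upstream end is at chr5:137149322. Muc5ac, Muc5b and Muc15 were not in it. A match of letters is a description of the sequence only.

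The libraries held 19692517 to 45284286 counts each. Levels are scaled CPM (counts relative to library size, with trimmed mean of M values factors), given per library in the order replicate 1 and replicate 2, and 3 counts correspond to 0.0645 to 0.162 CPM depending on the library. A gene was called when its Benjamini-Hochberg adjusted p in edgeR's quasi-likelihood test was under 0.05, and all adjusted p values below are from that test unless another is named. The summed level of the epithelial markers Epcam, Cdh1, Krt8 and Krt18 was 2509 to 8623 CPM in every library, but EPCAM alone was at 0.993 to 3.81 CPM in H1651, where the fibroblast collagen gene COL3A1 stood at 241 to 449 CPM. In the mouse cultures the summed leukocyte markers stayed at or below 1.89 CPM, the endothelial markers at or below 5.93 CPM and the fibroblast markers at or below 26.2 CPM. The check of the targeted gene went with the labels: Hnf4a fell from 371 ± 79.6 to 60.7 ± 10.2 CPM (SD, n = 2) in the 2-week experiment and from 225 ± 6.60 to 49.9 ± 0.677 CPM in the 48-hour experiment, and HNF4A rose from 41.5 ± 7.89 to 95.6 ± 1.73 CPM with doxycycline. These are counts over the whole gene, which can include exons outside the deleted part. Bulk counts cannot tell fewer cells of a type from less RNA per cell.

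Deletion of Hnf4a in 3154 was followed after 2 weeks by near loss of the membrane mucin Muc13 and by higher Muc5ac and Muc1. Of the 8 members listed, 7 were tested, 2 were called higher and 1 lower, where 4.03% of all 14492 genes tested were called higher and 5.78% lower (9.81% in all). Muc13 stood at 36.7 and 59.3 CPM in ethanol and at 0.0985 and 0.0375 CPM after 4OHT. The 4OHT libraries held 3 and 1 counts of Muc13 against 1114 and 1321 in ethanol, a ratio of 661 (95% counting interval 258 to 2429), and the fitted log2 fold change was -9.33 ± 0.48 (SE), adjusted p = 0.0027. Both 4OHT libraries were far below both ethanol libraries.

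Muc5ac, the gel-forming mucin of the gastric surface and of airway goblet cells, had 4.45 and 4.99 CPM in ethanol and 17.6 and 38.9 CPM after 4OHT. Both 4OHT libraries were above both ethanol libraries, with a log2 fold change of 2.58 ± 0.41 and adjusted p = 0.021. Muc1, a membrane mucin of most glandular epithelia, had 76.4 and 69.9 CPM in ethanol and 183 and 135 CPM after 4OHT, again without overlap. Its log2 fold change was 1.12 ± 0.18 (adjusted p = 0.021), and without 4OHT replicate 1 the adjusted p was 0.077.

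The other 4 tested members were not called in the fit without a block for the replicate number, so that their changes are given as values. Muc4, a membrane mucin with EGF-like domains, had 7.88 and 11.8 CPM in ethanol and 13.0 and 27.7 CPM after 4OHT, which did not overlap, with a log2 difference of 1.05 (95% interval 0.051 to 2.06) and adjusted p = 0.16. With the replicate number as a block edgeR called Muc4 higher (0.98, adjusted p = 0.0072), in a fit that called 4563 genes (31.5%) in place of 1421. Without ethanol replicate 2 the log2 difference of Muc4 was 1.37 (adjusted p = 0.046), and without 4OHT replicate 2 it was 0.41 (0.57). Muc5b was the most abundant gel-forming member, at 117 and 207 against 135 and 264 CPM, and Muc3, an intestinal-type membrane mucin, stood at 24.3 and 37.4 against 12.2 and 36.5 CPM. Muc20 was at 5.18 and 12.8 against 5.88 and 10.6 CPM. In all 3 the groups overlapped. Muc16, the CA125 antigen, had 0 counts in both ethanol libraries and 1 and 10 counts after 4OHT, and it was not tested. With 3 counts set in place of 0 for the ethanol group the ratio was 3.38, without counting error.

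The 48-hour experiment on the same line repeated the loss of Muc13 and the rise of Muc5ac, and added a rise of Muc5b. Of 7 members listed, 6 were tested, and among vehicle libraries 2 were called higher and 1 lower with 15.3% of 15458 genes called higher and 15.7% lower (31% in all). Muc13 fell from 30.1 and 82.7 CPM to 0.228 and 0.223 CPM, a log2 fold change of -7.93 ± 0.79 with adjusted p = 0.00054. Muc5ac rose from 0.589 and 0.336 CPM to 18.9 and 13.6 CPM (log2 fold change 5.12 ± 0.48, adjusted p = 0.00046). Each change was larger than the distance between replicates, although the Muc13 level differed more than 2-fold between the ethanol replicates.

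Muc5b, the principal gel-forming mucin of the distal airways, went from 5.76 and 2.35 CPM to 17.7 and 18.2 CPM, a log2 fold change of 2.14 ± 0.47 with adjusted p = 0.012. Without 4OHT vehicle replicate 1 its adjusted p was 0.053, and without replicate 2 of that group it was 0.060. Muc1 was at 318 and 236 against 288 and 300 CPM, which overlapped, and the 95% interval of its log2 difference ran from -0.28 to 0.45. Muc3 (57.3 and 139 against 50.4 and 91.4 CPM) and Muc4 (2.40 and 0.839 against 2.77 and 1.65 CPM) also overlapped, and Muc20 stayed at or below 0.459 CPM in all 8 libraries and was not tested.

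Under MRTX1133 the deletion was followed by changes in the same 3 members, with 13.2% of genes called higher and 14.5% lower (27.7% in all). Muc13 fell from 38.3 and 82.9 CPM to 0.237 and 0.532 CPM (log2 fold change -7.26 ± 0.73, adjusted p = 0.00053). Muc5ac rose from 0.498 and 0.643 CPM to 5.24 and 11.4 CPM, by 3.86 ± 0.47 on the log2 scale (adjusted p = 0.0011). Muc5b rose from 2.45 and 1.97 CPM to 6.47 and 15.2 CPM, by 2.29 ± 0.49 (adjusted p = 0.012), and its adjusted p was 0.059 and 0.072 without ethanol MRTX1133 replicate 1 or 2 and 0.079 without 4OHT MRTX1133 replicate 2. Muc1 was at 297 and 291 CPM in ethanol and at 363 and 416 CPM after 4OHT, without overlap, and was not called (adjusted p = 0.094). Muc3 was at 42.4 and 89.4 CPM in ethanol and at 29.0 and 46.0 CPM after 4OHT, which overlapped. With the replicate number as a block edgeR called Muc3 lower (log2 difference -0.75, adjusted p = 0.015), in a fit that called 4388 genes (28.4%).

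**Figure D1:**
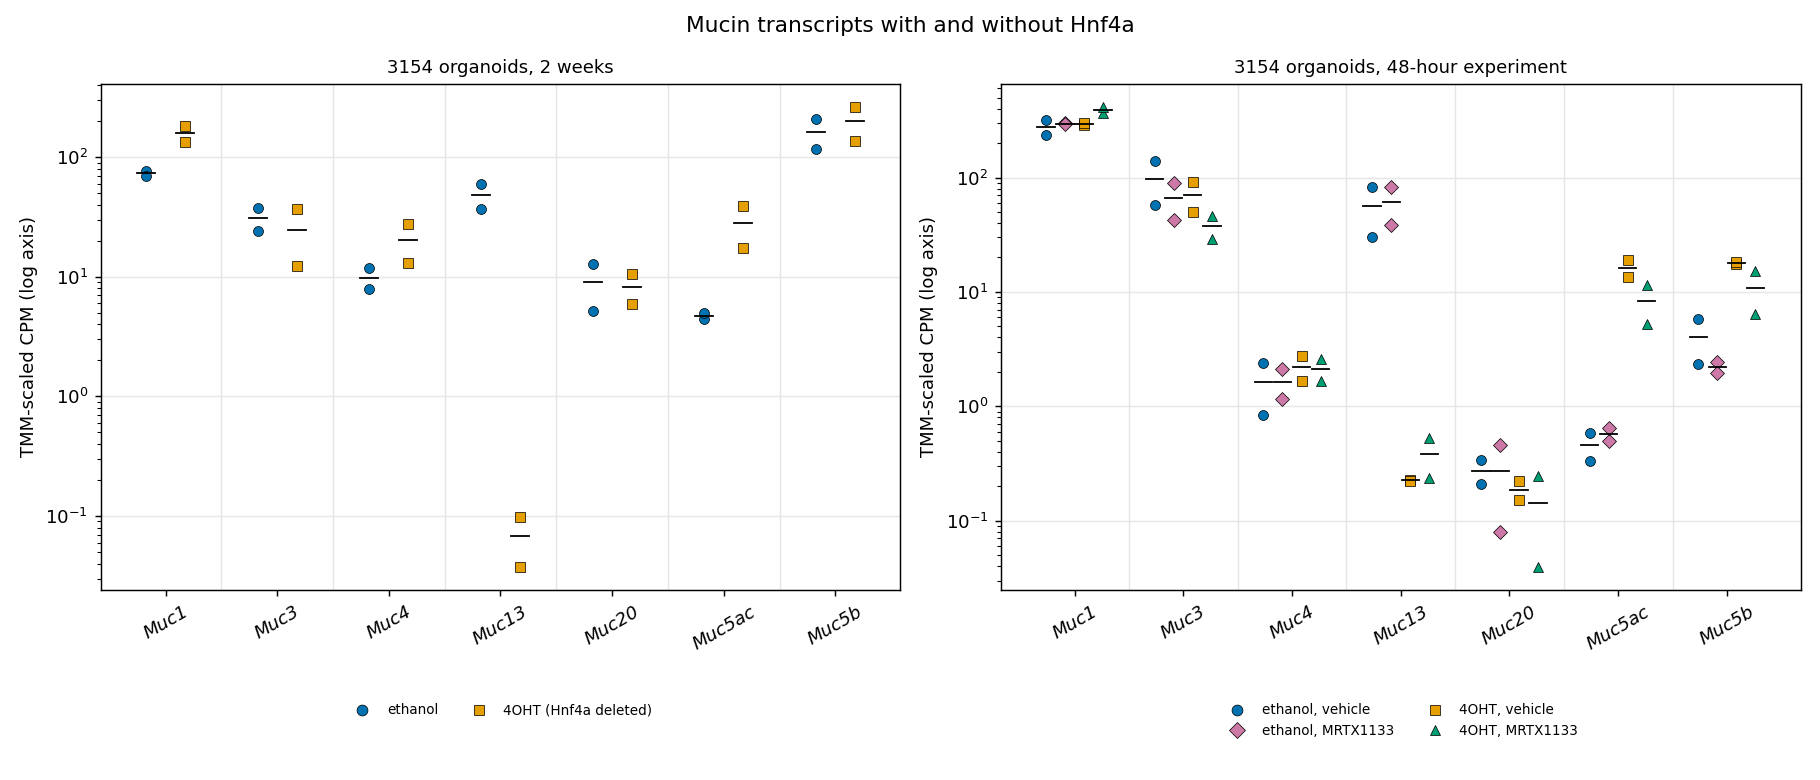
Level of each mucin in the 3154 organoids, with the TMM-scaled CPM on a log axis, 1 point per library, short black lines at the group means, and Muc16 (0 in ethanol) left out of the 2-week panel. Muc13 sits at 30.1 CPM or more in every library with Hnf4a intact and at 0.532 CPM or less after 4OHT, while Muc5ac is higher after 4OHT in both experiments.

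MRTX1133 by itself moved no mucin past the threshold in 3154. With Hnf4a intact, 0 of 6 tested members were called by edgeR, with 0.349% of genes called (0.317% higher, 0.0323% lower), and 0 had an unadjusted p under 0.05. Muc13 stood at 30.1 and 82.7 CPM in vehicle and 38.3 and 82.9 CPM under the inhibitor, and Muc5b at 5.76 and 2.35 against 2.45 and 1.97 CPM. After deletion, 0 of 6 members were called with 4.64% of genes called (2.1% higher, 2.54% lower), and 2 (Muc1 and Muc5ac) had an unadjusted p under 0.05. Muc5ac went from 18.9 and 13.6 to 5.24 and 11.4 CPM without overlap, a log2 difference of -0.96 (95% interval -1.79 to -0.14, adjusted p = 0.18), and Muc1 from 288 and 300 to 363 and 416 CPM (0.41, interval 0.040 to 0.77, adjusted p = 0.20). In a fit of those 4 libraries alone, which called 3932 genes in place of 717, 3 members were called, with adjusted p of 0.046 for Muc5ac, 0.014 for Muc1 and 0.041 for Muc3, and DESeq2 called 0. With the replicate number as a block edgeR called Muc3 lower (adjusted p = 0.030), in a fit that called 759 genes (4.91%).

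Whether the inhibitor acted differently with and without Hnf4a was tested as an interaction in the 8 libraries. edgeR called 0 of 15458 genes, with 1150 at an unadjusted p under 0.05 and 30 called by DESeq2, and 0 of the 6 mucins were called by either tool or at the unadjusted level. The interaction of Muc5ac was -1.26 on the log2 scale, with a 95% interval from -2.91 to 0.39 and adjusted p = 0.79. This interval holds both 0 and a difference of more than 2-fold.

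The 3 called members of the 48-hour table were each compared with the other genes of that table by Pearson correlation of log2 CPM over the 8 libraries, as a description. These libraries share the deletion groups, so any gene that follows the deletion scores high. Muc13 was most like Tmprss4 (r = 0.997), which encodes a membrane serine protease, then Ankrd37 (0.997) and Ppp1r14d (0.996). The genes most like Muc5ac were Slc26a2 (0.993), a sulfate transporter gene, Tnrc6a (0.990) and Enc1 (0.990). Those most like Muc5b were Mtmr10 (0.991) and Sh3pxd2a (0.985).

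Of other genes of mucus biology, some were called in each direction after the deletion, at shares set beside those of all genes (4.03% higher and 5.78% lower at 2 weeks, 15.3% and 15.7% in the 48-hour vehicle libraries). Of 26 tested genes of mucin O-glycosylation, 2 were called higher and 5 lower at 2 weeks (median log2 fold change -0.18, against 0.018 over all genes) and 8 higher and 3 lower in the 48-hour vehicle libraries (0.22, against 0.010). At 2 weeks B4galnt3, a glycosyltransferase gene, fell from 45.4 ± 1.63 to 11.1 ± 4.68 CPM and Galnt18, of the family that starts O-glycans, from 30.6 ± 18.6 to 7.68 ± 0.423 CPM. In the 48-hour vehicle libraries Chst4, a sulfotransferase gene, rose from 5.98 ± 3.94 to 29.1 ± 1.06 CPM and B3gnt7 from 3.68 ± 1.03 to 11.9 ± 0.802 CPM.

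Among genes of mucus packaging and secretion, 2 of 13 were called higher and 1 lower at 2 weeks (median 0.18), and 4 of 12 higher and 2 lower in the 48-hour vehicle libraries (0.36). Tff1, the trefoil peptide that accompanies Muc5ac in the gastric surface, rose from 136 ± 55.5 to 594 ± 181 CPM at 2 weeks and from 171 ± 61.6 to 471 ± 18.8 CPM in the 48-hour experiment. Agr2, a disulfide isomerase needed for mucin folding, fell from 33.2 ± 12.2 to 4.94 ± 0.794 CPM in the 48-hour vehicle libraries. Among regulators of mucin genes, 1 of 17 was called higher and 4 lower at 2 weeks, and 4 of 18 in each direction in the 48-hour vehicle libraries. Hnf4a is on that list, so 1 of the lower calls in each experiment is the deleted gene. Other mucin genes had 0 of 4 called at 2 weeks and 1 of 4, lower, in the 48-hour vehicle libraries.

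Marker levels of other cell types moved in the same samples. The summed club cell markers (Scgb1a1, Scgb3a2, Cyp2f2, all 3 listed, none at 0 throughout) were at 35.4 to 46.9 CPM in ethanol and 141 to 164 CPM after 4OHT at 2 weeks, and at 35.3 to 70.1 and 427 to 637 CPM in the 48-hour vehicle libraries. The airway goblet markers overlapped at 2 weeks (39.8 to 89.8 against 49.6 to 77.4 CPM, 6 of 6 listed) and were at 152 to 153 against 164 to 184 CPM in the 48-hour vehicle libraries (5 of 6 listed). The gastric pit markers Gkn1, Gkn2, Tff1 and Muc5ac itself (4 of 4 listed) summed to 176 to 247 CPM in ethanol and 613 to 949 CPM after 4OHT at 2 weeks, and to 179 to 257 and 562 to 601 CPM in the 48-hour vehicle libraries. The gastric mucous neck markers (3 of 4 listed) went from 732 to 746 CPM in ethanol to 1096 to 1277 CPM after 4OHT at 2 weeks, and from 1083 to 1092 CPM to 1215 to 1371 CPM in the 48-hour vehicle libraries. The mesothelial markers overlapped at 2 weeks (1019 to 1311 against 808 to 1089 CPM, 5 of 5 listed, 1 at 0) and were at 274 to 338 against 612 to 727 CPM in the 48-hour vehicle libraries (4 of 5 listed). Under MRTX1133 the sums went with the deletion from a range of 145 to 196 CPM to one of 950 to 965 CPM for club markers and from 101 to 146 CPM up to 241 to 279 CPM for gastric pit markers. Gastric mucous neck markers went from 814 to 850 CPM up to 1183 to 1235 CPM, mesothelial markers from 283 to 319 CPM up to 518 to 622.5 CPM and airway goblet markers from 152.5 to 173 CPM up to 208.5 to 236 CPM. The alveolar type 2 markers (4 of 4 listed) overlapped between ethanol and 4OHT in both experiments. The ciliated markers (3 of 5 listed) were at 1.75 to 1.95 CPM in ethanol and 3.22 to 3.97 CPM after 4OHT at 2 weeks. They were at 0.926 to 1.26 and 1.59 to 2.95 CPM in the 48-hour vehicle libraries, and at 2.41 to 2.83 and 4.65 to 5.56 CPM under MRTX1133. Between vehicle and MRTX1133 after deletion, gastric pit markers went from 562 to 601 CPM down to 241 to 279 CPM. Club markers went from 427 to 637 CPM up to 950 to 965 CPM, and alveolar type 2 markers from 7497 to 8675 CPM up to 12050 to 16390 CPM. With Hnf4a intact these lists moved in the same directions under the inhibitor. Their part in the mucin changes was not tested.

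The ethanol controls of the 2 experiments on 3154 had different mucin levels, and they were not treated alike: one was harvested 2 weeks after ethanol, the other had ethanol with inhibitor vehicle in a 48-hour treatment. In ethanol Muc5b was at 117 and 207 CPM in the 2-week table and at 5.76 and 2.35 CPM in the 48-hour table, and Muc5ac at 4.45 and 4.99 against 0.589 and 0.336 CPM. Muc1 ran the other way, at 76.4 and 69.9 against 318 and 236 CPM. The tables were also normalized separately and differ in annotation (96.841% of the gene identifiers of the 48-hour table and 99.891% of those of the 2-week table are in GENCODE M21, and Muc4 has a different identifier in each), so no test was made.

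Induction of HNF4A in H1651 was followed by no mucin call in fits without a block for the replicate number. By edgeR 0 of 7 tested members were called, with 1.42% of 17351 genes called (1.04% higher, 0.386% lower), and 1 member, MUC13, had an unadjusted p under 0.05, while DESeq2 also called 0. MUC13 was the member with the most reads in this line, at 600 and 544 CPM without doxycycline and 744 and 664 CPM with it. The groups did not overlap, and the log2 difference was 0.30 (95% interval 0.096 to 0.50) with adjusted p = 0.19. With the replicate number as a block edgeR called MUC13 higher (adjusted p = 5.7e-09), in a fit that called 3048 genes (17.6%). MUC1 was at 165 and 165 against 174 and 145 CPM, which overlapped. The other 5 (MUC4, MUC5AC, MUC5B, MUC16 and MUC20) stayed at or below 2.48 CPM in all 4 libraries. Among regulators of mucin genes 3 of 17 were called higher, HNF4A itself among them, where 1.04% of all genes were, and KLF4, a zinc finger factor of goblet cells, rose from 5.35 ± 0.0456 to 10.7 ± 1.26 CPM. Of 23 O-glycosylation genes, 8 packaging genes and 5 other mucin genes 0 were called. The summed fibroblast markers (5 of 5 listed) were at 514 to 566 CPM without and 313 to 330 CPM with doxycycline, and the epithelial markers at 4412 to 4415 and 5708 to 6196 CPM.

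Trametinib in the 1027B organoids lowered both gel-forming mucins and Muc4 and raised Muc1. Of 7 members listed 6 were tested, 1 was called higher and 3 lower, with 13.5% of 14555 genes called higher and 13.2% lower (26.7% in all). The count of called members was 1 to 3 when any 1 of these 4 libraries was left out. In the vehicle-treated organoids, per kb of exon (GRCm38 models), Muc1 stood at 279 ± 60.2 CPM per kb, Muc5ac at 60.8 ± 12.7, Muc5b at 38.6 ± 0.154 and Muc4 at 9.40 ± 0.713. Muc20 (0.974 ± 0.544), Muc3 (0.816 ± 0.344) and Muc13 (0.0417 ± 0.00860 CPM per kb) followed. Adjacent members of this order did not overlap except Muc20 and Muc3.

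Muc5ac had 557 and 750 CPM in vehicle and 212 and 194 CPM under trametinib. This was a log2 fold change of -1.69 ± 0.37 with adjusted p = 0.019, and the adjusted p was 0.078, 0.093 and 0.079 without vehicle replicate 2, trametinib replicate 1 or trametinib replicate 2. Muc5b had 576 and 579 CPM in vehicle and 373 and 326 CPM under trametinib (-0.72 ± 0.21, adjusted p = 0.047). That call was lost under another scaling (relative log expression factors, adjusted p = 0.051) and on leaving out any 1 library, vehicle replicate 1 (0.12), vehicle replicate 2 (0.14), trametinib replicate 1 (0.13) or trametinib replicate 2 (0.17). Muc4 fell from 105 and 117 to 67.1 and 65.6 CPM, by 0.74 ± 0.10 on the log2 scale (adjusted p = 0.0041), and was called in each of those fits.

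Muc1 rose from 753 and 554 CPM to 1217 and 1048 CPM, a log2 fold change of 0.79 ± 0.17 with adjusted p = 0.017, and its adjusted p was 0.059 without vehicle replicate 2 and 0.092 without trametinib replicate 1. Muc3 had 1.11 and 2.06 CPM in vehicle and 0.223 and 0.933 CPM under trametinib. It was not called (log2 difference -1.45, adjusted p = 0.19), but was called lower with the replicate number as a block (adjusted p = 0.026), in a fit that called 6540 genes (44.9%) in place of 3880. Muc20 overlapped between the groups. Muc13 had 1 to 9 counts per library in this line and was not tested.

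MRTX1133 in 1027B gave 1 call among the 6 members, with 6.27% of genes called (3.01% higher, 3.26% lower). Muc5ac was at 557 and 750 CPM in vehicle and 106 and 251 CPM under MRTX1133, a log2 fold change of -1.87 ± 0.38 with adjusted p = 0.037. The adjusted p was 0.066 in a fit of only these 4 libraries and 0.082, 0.13 and 0.051 without vehicle replicate 1, vehicle replicate 2 or MRTX1133 replicate 1. Muc5b, at 576 and 579 against 245 and 395 CPM, did not overlap and had an adjusted p of 0.070, and 0.0093 with the replicate block. Its log2 difference was -1.22 without MRTX1133 replicate 2 (adjusted p = 0.034) and -0.54 without MRTX1133 replicate 1 (0.19).

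With the replicate number as a block, 4 members were called lower under MRTX1133 in place of 1, in a fit that called 3515 genes (24.1%, 12.7% lower) in place of 913. Muc4 (105 and 117 against 83.6 and 90.2 CPM) had an adjusted p of 0.10 without and 0.015 with the block, and Muc3 (1.11 and 2.06 against 0.297 and 0.798 CPM) of 0.27 and 0.040. Muc1, at 753 and 554 against 809 and 772 CPM, had a log2 difference of 0.27 (95% interval -0.12 to 0.67) and adjusted p = 0.39. Muc20 overlapped and Muc13 was not tested.

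The 2 inhibitors were also set against each other in 1027B, at doses that differ (20 nM MRTX1133 and 10 nM trametinib), and the trametinib and the MRTX1133 comparisons above share the vehicle libraries. edgeR called 0 of 14555 genes, with 2357 at an unadjusted p under 0.05, while 2050 genes (14.1%) were called with the replicate block and 675 by DESeq2. Of the mucins, Muc1 was lower under MRTX1133 than under trametinib without overlap (log2 difference -0.52, 95% interval -0.92 to -0.12, adjusted p = 0.22 and 0.0098 with the block). Muc4 was higher under MRTX1133 (0.39, interval 0.15 to 0.63, adjusted p = 0.16 and 0.016 with the block). Muc5ac and Muc5b overlapped between the 2 inhibitors, with intervals of -1.05 to 0.68 and -0.63 to 0.38.

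Genes that glycosylate and package mucins are set beside the share of all genes called in 1027B (13.5% higher and 13.2% lower under trametinib, 3.01% and 3.26% under MRTX1133). Under trametinib 3 of 24 O-glycosylation genes were called higher and 12 lower (median log2 fold change -0.49, against -0.011 over all genes), and under MRTX1133 1 higher and 6 lower (-0.40, against 0.0064). Gcnt4, a core 2 branching enzyme, fell from 43.2 ± 10.3 CPM to 5.56 ± 1.50 under trametinib and 12.3 ± 3.10 under MRTX1133, and Gcnt3 fell from 178 ± 12.5 to 35.1 ± 16.9 CPM under trametinib. Tff1 fell from 2340 ± 637 CPM to 160 ± 55.8 under trametinib and 369 ± 80.7 under MRTX1133. Of packaging genes, 2 of 7 were called higher and 1 lower under trametinib, and 1 of 7 in each direction under MRTX1133, where Ano1, a calcium-activated chloride channel gene, rose from 129 ± 11.9 CPM to 336 ± 27.1 and 244 ± 33.1. Of 15 regulators, 3 were called higher and 5 lower under trametinib, and 1 and 5 under MRTX1133. Hnf4a itself fell from 459 ± 17.7 CPM to 227 ± 37.7 and 270 ± 39.0, and Klf4 from 205 ± 0.590 CPM to 65.3 ± 22.0 and 77.3 ± 19.1.

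Marker levels in 1027B moved with the inhibitors. The summed gastric pit markers (Gkn1, Gkn2, Tff1 and Muc5ac itself, 4 of 4 listed) were at 3265 to 4160 CPM in vehicle, 347.7 to 427.4 under trametinib and 464 to 742 under MRTX1133. The club cell markers (3 of 3 listed) were at 1.07 to 7.80 CPM in vehicle, 152 to 283 under trametinib and 69.8 to 80.7 under MRTX1133, and the airway goblet markers (3 of 6 listed) at 40.4 to 43.0, 34.6 to 36.9 and 37.0 to 37.2 CPM. The alveolar type 2 markers (4 of 4 listed) were at 6243 to 10210, 1807 to 2340 and 2681 to 4277 CPM, and the gastric mucous neck markers (2 of 4 listed) at 1426 to 1544, 955 to 1061 and 1012 to 1145 CPM. The mesothelial markers (4 of 5 listed) were at 585 to 723, 525 to 577 and 518 to 534 CPM. Their part in the mucin changes was not tested.

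Trametinib in the 3311 cells lowered Muc5b and Muc4. Of 6 members listed and tested, 2 were called lower and 0 higher, with 19.4% of 15224 genes called higher and 19.6% lower (39% in all). Muc5b had 33.7 and 21.4 CPM in vehicle and 5.56 and 4.76 CPM under trametinib, a log2 fold change of -2.41 ± 0.27 with adjusted p = 0.0012. Muc4 fell from 9.44 and 13.8 CPM to 3.76 and 4.68 CPM (-1.46 ± 0.29, adjusted p = 0.0086). Neither overlapped between the groups.

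Muc13, the leading member of 3311 per kb of exon (15.4 ± 9.92 CPM per kb in vehicle), had 25.6 and 68.2 CPM in vehicle and 64.2 and 152 CPM under trametinib. The groups overlapped, and the log2 difference of 1.20 had a 95% interval from -0.0042 to 2.41 and adjusted p = 0.10. With the replicate number as a block edgeR called Muc13 higher (1.24, adjusted p = 0.00035), in a fit that called 6356 genes (41.7%) in place of 5938. Without vehicle replicate 2 the log2 difference was 2.08 (adjusted p = 0.031) and without trametinib replicate 1 it was 1.70 (9.7e-07), while without vehicle replicate 1 it was 0.66 (0.35) and without trametinib replicate 2 it was 0.45 (0.23). Muc20 had 1.71 and 2.31 CPM in vehicle and 0.143 and 0.875 CPM under trametinib and did not overlap. It was not called (log2 difference -1.98, adjusted p = 0.061), but had an adjusted p of 0.046 by DESeq2 and 0.022 in edgeR with the block. Without trametinib replicate 2 the log2 difference of Muc20 was -3.77 (adjusted p = 0.0013), and without trametinib replicate 1 it was -1.20 (0.24). Muc3, at 3.01 and 7.33 against 4.88 and 12.0 CPM, overlapped and reached an adjusted p of 0.028 without trametinib replicate 1, and Muc1 was at or below 1.76 CPM and overlapped.

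In 3311 the other mucin genes included 3 of 5 called lower and 0 higher (median log2 fold change -0.62, against 0.0081 over all genes). Muc2, the intestinal gel-forming mucin, fell from 19.1 ± 2.78 to 3.69 ± 1.02 CPM, and Cd164, a membrane sialomucin, from 542 ± 94.6 to 367 ± 27.2 CPM. The O-glycosylation list had 6 of 23 called in each direction, where 19.4% of all genes were called higher and 19.6% lower, with Gcnt4 falling from 55.9 ± 2.31 to 7.56 ± 3.24 CPM and Galnt12 from 12.2 ± 0.599 to 1.44 ± 0.00826 CPM. Against the same shares, the packaging list had 3 of 9 higher and 2 lower: Agr2 fell from 56.4 ± 0.401 to 2.91 ± 1.32 CPM, and Fcgbp, a mucus-binding protein gene, rose from 11.1 ± 3.18 to 62.4 ± 21.1 CPM. Of 18 regulators 6 were called in each direction, with Creb3l1 falling from 99.5 ± 10.7 to 35.0 ± 4.63 CPM and Klf4 rising from 87.3 ± 46.6 to 220 ± 50.7 CPM. Hnf4a, at 427 ± 73.9 and 327 ± 89.8 CPM, was not called. The summed epithelial markers were at 5361 to 6226 CPM in vehicle and 3654 to 4556 CPM under trametinib (4 of 4 listed) and the airway goblet markers, Agr2 among them, at 110 to 113 and 59.6 to 70.0 CPM (4 of 6 listed). The alveolar type 2 markers were at 4215 to 4932 CPM in vehicle and 259 to 387 CPM under trametinib (3 of 4 listed), the gastric mucous neck markers at 696 to 700.2 and 172 to 179 CPM (2 of 4), the gastric pit markers at 30.7 to 42.2 and 9.75 to 21.8 CPM (1 of 4) and the mesothelial markers at 16.3 to 22.0 and 4.91 to 14.1 CPM (4 of 5). Their part in the mucin changes was not tested.

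**Figure D2:**
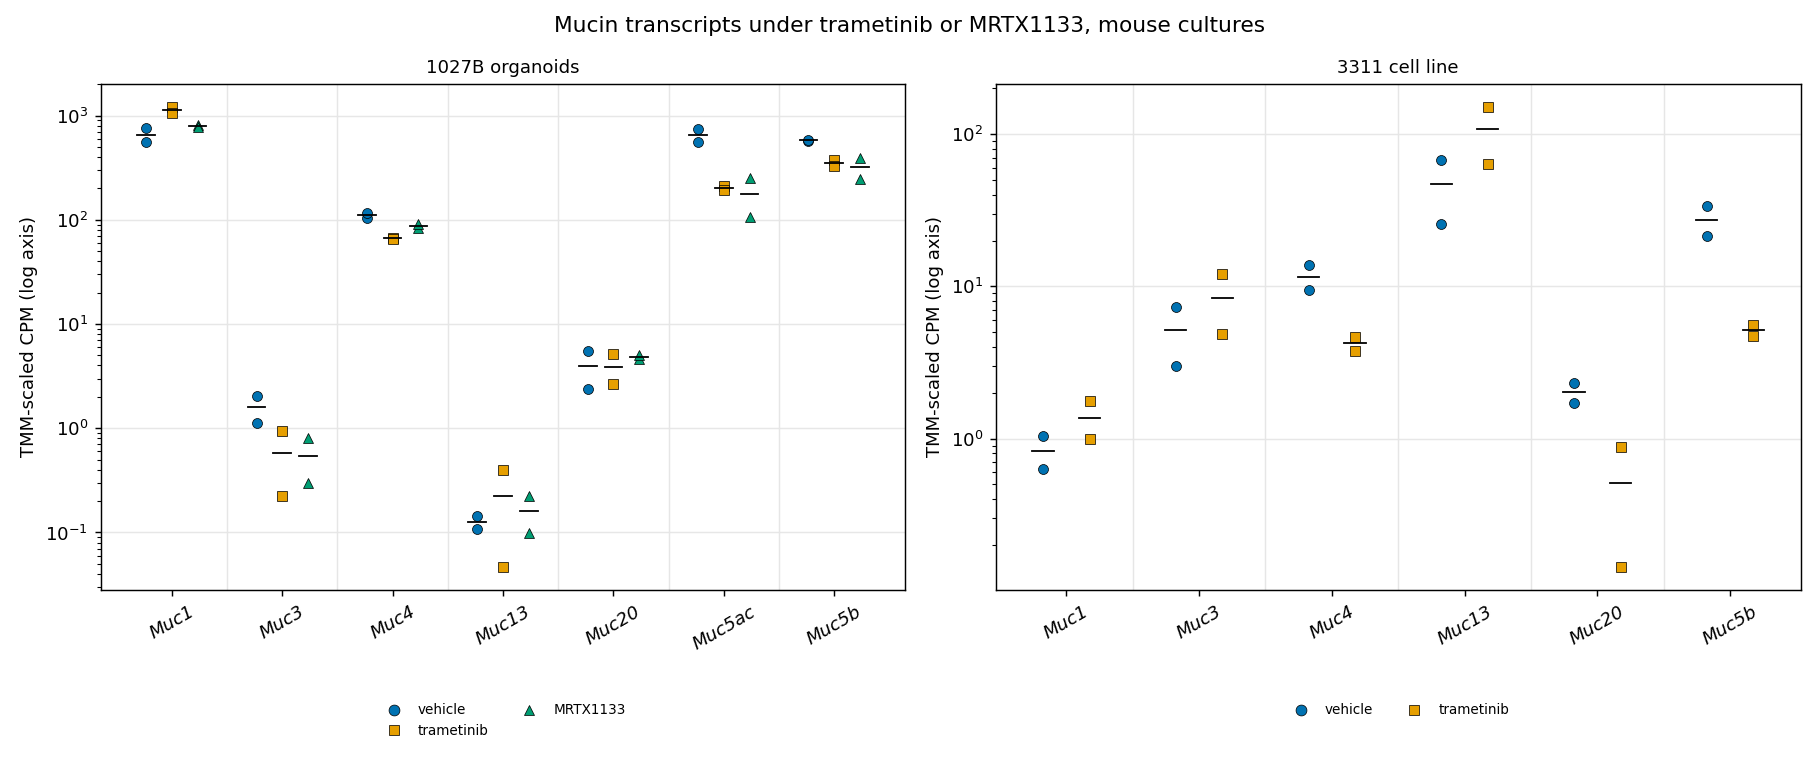
Level of each mucin in the 1027B organoids and the 3311 cells under vehicle or inhibitor, with the TMM-scaled CPM on a log axis, 1 point per library and short black lines at the group means. Muc5ac in 1027B lies at 557 CPM or more in vehicle and at 251 CPM or less under either inhibitor, and Muc5b in 3311 at 21.4 CPM or more in vehicle and at 5.56 CPM or less under trametinib.

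In H358 every member tested was called under trametinib, the 6 membrane members higher and the 2 gel-forming members lower. This describes the members only, other mucin genes are given below, and the call of MUC13 was not kept by DESeq2. All 8 members listed were tested and called, 6 higher and 2 lower, with 23.5% of 18972 genes called higher and 23.2% lower (46.8% in all). MUC5B, at 89.9 and 88.9 CPM in vehicle, was at 9.45 and 7.97 CPM under trametinib, a log2 fold change of -3.35 ± 0.13 with adjusted p = 3.8e-06. MUC5AC fell from 3.44 and 2.21 CPM to 0.193 and 0.157 CPM (-3.96 ± 0.41, adjusted p = 0.00017). These 2 were the members of the list that are secreted and were listed in this line.

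MUC15, a small membrane mucin, rose from 2.05 and 3.28 CPM to 63.1 and 68.3 CPM, a log2 fold change of 4.63 ± 0.21 with adjusted p = 6.8e-06. MUC16 rose from 57.0 and 35.1 CPM to 144 and 93.7 CPM (1.37 ± 0.25, adjusted p = 0.0031), and MUC1 from 21.8 and 20.2 CPM to 69.6 and 43.9 CPM (1.44 ± 0.20, adjusted p = 0.00084). MUC4 rose from 12.1 and 9.73 CPM to 22.9 and 16.7 CPM, by 0.86 ± 0.19 (adjusted p = 0.0070). None of these groups overlapped.

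MUC20 rose from 10.95 and 8.66 CPM to 86.4 and 59.1 CPM, a log2 fold change of 2.89 ± 0.21 with adjusted p = 3.7e-05. This value is uncertain because human MUC20 has a near copy, the pseudogene MUC20P1, and a transcript at its own locus, MUC20-OT1, with which reads could be split. MUC20P1 rose as well, from 0.963 ± 0.116 to 7.42 ± 2.51 CPM, and MUC20-OT1 from 26.7 ± 0.987 to 41.3 ± 5.60 CPM. Both were looked up after the values of MUC20 were seen.

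MUC13 was near the floor in H358, with 5 and 4 counts in vehicle (0.129 and 0.119 CPM) and 33 and 10 counts under trametinib (0.709 and 0.393 CPM). It was called (log2 fold change 2.18 ± 0.51, adjusted p = 0.0087), but its adjusted p was 0.077 by DESeq2, 0.050 without vehicle replicate 1 and 0.15 without trametinib replicate 1. HNF4A had 0 counts in all 4 H358 libraries.

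Among the other mucin genes of H358, 4 of 6 tested were called higher and 1 lower (median log2 fold change 2.07, against 0.015 over all genes), though most were at low levels. MUC21 had 112 counts over the trametinib libraries and 1 over the vehicle libraries, a ratio of 112 with a counting interval of 19.7 to 4468. MUC19 had 236 and 0, a ratio of 78.8 with 3 counts set in place of 0 for the vehicle group, without counting error. MUC12 fell from 0.688 ± 0.167 to 0.0930 ± 0.0205 CPM, and CD164 rose from 148 ± 3.96 to 194 ± 3.83 CPM. These names other than CD164 fall outside the rule for naming genes and were chosen after their values were seen.

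Of 25 O-glycosylation genes in H358, 7 were called higher and 8 lower (median 0.19), where 23.5% of all genes were called higher and 23.2% lower, with ST6GALNAC2, a sialyltransferase gene, rising from 2.47 ± 0.163 to 18.3 ± 5.85 CPM and GALNT14 falling from 51.7 ± 0.830 to 12.1 ± 3.46 CPM. Against the same shares, packaging genes had 2 of 7 called in each direction, with VAMP8, a SNARE gene of granule release, rising from 80.7 ± 3.71 to 105 ± 12.3 CPM. Of 14 regulators 4 were called in each direction. FOXA2, a regulator of airway secretory cells, fell from 82.8 ± 0.273 to 5.41 ± 2.06 CPM while FOXA1 rose from 45.8 ± 10.0 to 113 ± 0.732 CPM. The summed epithelial markers were at 4217 to 4309 CPM in vehicle and 2509 to 2916 CPM under trametinib (4 of 4 listed), the fibroblast markers at 33.4 to 37.7 and 119 to 148 CPM (5 of 5), and the airway goblet markers at 164 to 169 and 165 to 173 CPM (5 of 6, 1 at 0 throughout). The gastric mucous neck markers were at 136 to 164 and 65.2 to 79.8 CPM (3 of 4, 1 at 0) and the ciliated markers at 45.7 to 50.7 and 74.1 to 95.3 CPM (4 of 5). The endothelial markers were at 11.6 to 14.2 and 20.8 to 21.0 CPM (3 of 3), the leukocyte markers at 4.66 to 9.82 and 0.824 to 1.10 CPM (3 of 4), the mesothelial markers at 1.70 to 2.18 and 6.64 to 7.22 CPM (4 of 5, 1 at 0) and the alveolar type 2 markers at 3.00 to 3.25 and 5.35 to 8.40 CPM (3 of 4, 1 at 0). Their part in the mucin changes was not tested.

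In H1651 the same dose of trametinib gave no call in any gene in edgeR's test without a block for the replicate number. It called 0 of 18277 genes (0%), with 597 at an unadjusted p under 0.05, DESeq2 called 47, and of the 7 tested mucins 0 were called by either tool and 2 (MUC5AC and MUC5B) had an unadjusted p under 0.05. MUC5AC was at 1.06 and 0.778 CPM in vehicle and 0.217 and 0.0842 CPM under trametinib, without overlap, a log2 difference of -2.58 with a 95% interval of -3.86 to -1.30 and adjusted p = 0.999. MUC5B was at 2.20 and 1.53 against 0.923 and 0.842 CPM, also without overlap (-1.08, interval -1.83 to -0.34). Both were low in this line. With the replicate number as a block edgeR called 1881 genes (10.3%). MUC5AC (adjusted p = 1.6e-05), MUC5B (0.00098) and MUC1 (0.0030) were called lower in that fit. No label says that the number marks a shared culture.

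MUC13, at 670 and 541 against 628 and 489 CPM, and MUC1, at 161 and 116 against 148 and 91.0 CPM, were the abundant members of H1651 and overlapped between the groups. MUC4 was at 0.352 and 0.156 against 0.462 and 0.477 CPM, without overlap and with at most 17 counts per library. MUC16 was at or below 0.396 CPM and MUC20 at or below 0.924 CPM, and both overlapped. MUC15 had 0 counts in all 4 libraries. Of 23 O-glycosylation genes, 8 packaging genes, 18 regulators and 6 other mucin genes 0 were called.

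**Figure D3:**
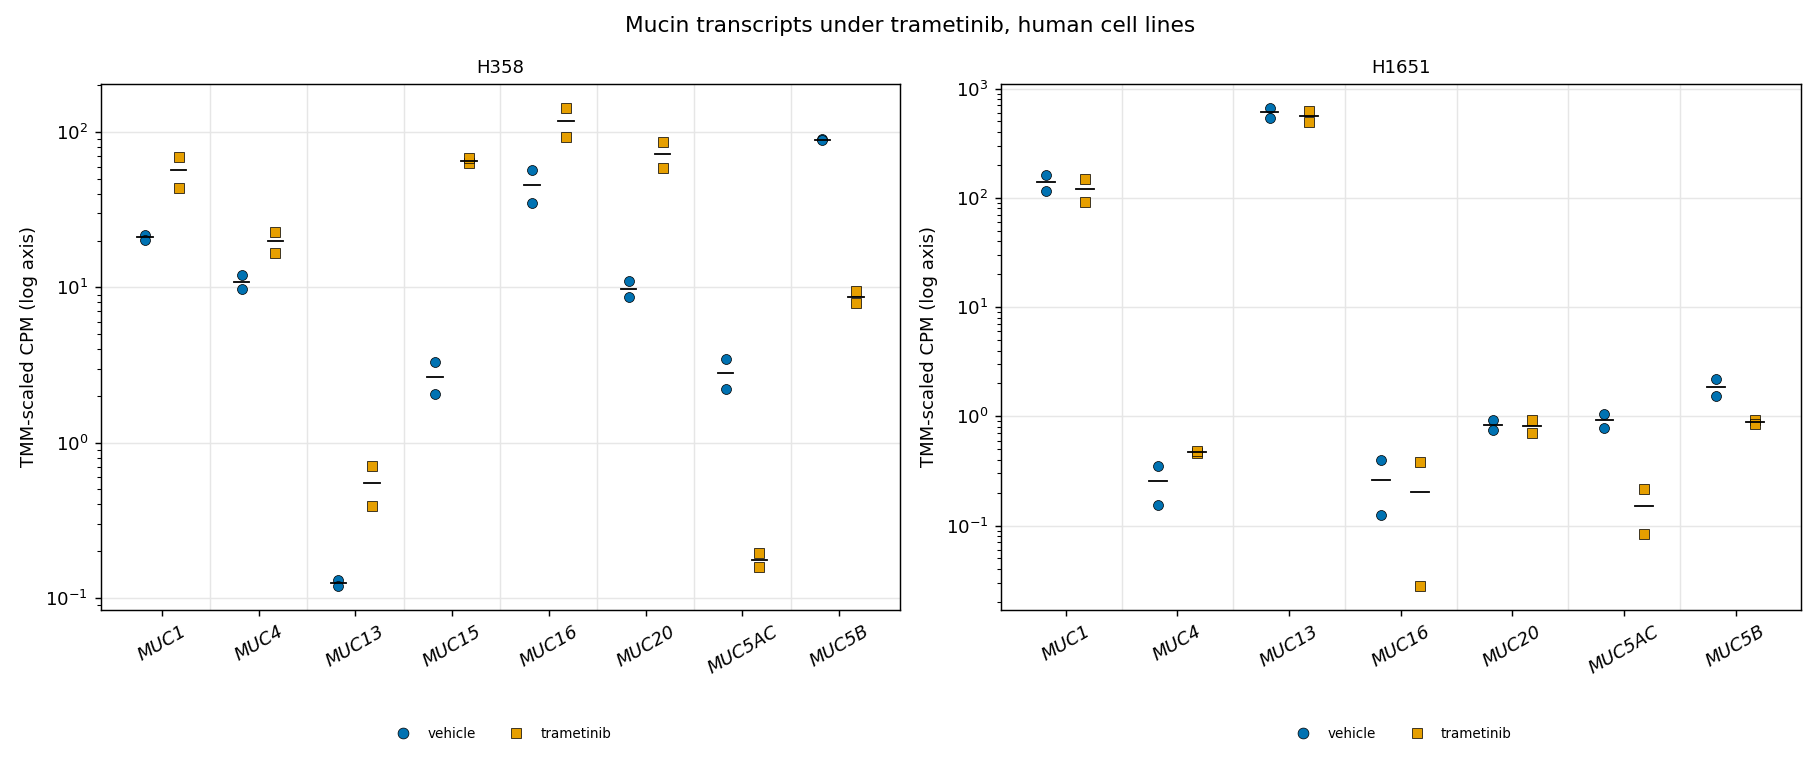
Level of each mucin in H358 and H1651 under vehicle or trametinib, with the TMM-scaled CPM on a log axis, 1 point per library, short black lines at the group means, and MUC15 (0 in all libraries) left out of the H1651 panel. In H358 the trametinib points of MUC5AC and MUC5B lie below and those of the other 6 members above the vehicle points, while in H1651 MUC13 and MUC1 overlap.

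Set side by side over the 11 comparisons of a treatment with its control, the calls of a member were often not all in 1 direction. Gel-forming Muc5ac was called higher in the 3 deletion comparisons and lower in 3 of the inhibitor comparisons (trametinib and MRTX1133 in 1027B, trametinib in H358), and Muc5b was called higher in 2 and lower in 3 (trametinib in 1027B, 3311 and H358). Muc13 was called lower in the 3 deletion comparisons and higher in 1, Muc1 higher in 3 and lower in 0, and Muc4 lower in 2 and higher in 1. The higher call of Muc13 was near the floor in H358 and was not kept by DESeq2 (adjusted p = 0.077). The lower call of Muc5b in 1027B was not kept in edgeR with relative log expression factors (adjusted p = 0.051). The deletion comparisons with and without MRTX1133 share no library, but each shares libraries with the MRTX1133 comparisons, and the 2 comparisons of 1027B share their vehicle libraries. Levels of Muc13 beside those of Hnf4a in the controls, from tables normalized separately, were 48.0 ± 16.0 and 371 ± 79.6 CPM in 3154 at 2 weeks, 56.4 ± 37.2 and 225 ± 6.60 CPM in the 48-hour vehicle libraries of 3154, 46.9 ± 30.1 and 427 ± 73.9 CPM in 3311, 0.127 ± 0.0261 and 459 ± 17.7 CPM in 1027B, 572 ± 39.7 and 41.5 ± 7.89 CPM in H1651 without doxycycline, 606 ± 90.8 and 48.2 ± 14.3 CPM in H1651 with trametinib vehicle, and 0.124 ± 0.00712 CPM in H358, where HNF4A had 0 counts.

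**Figure D4:**
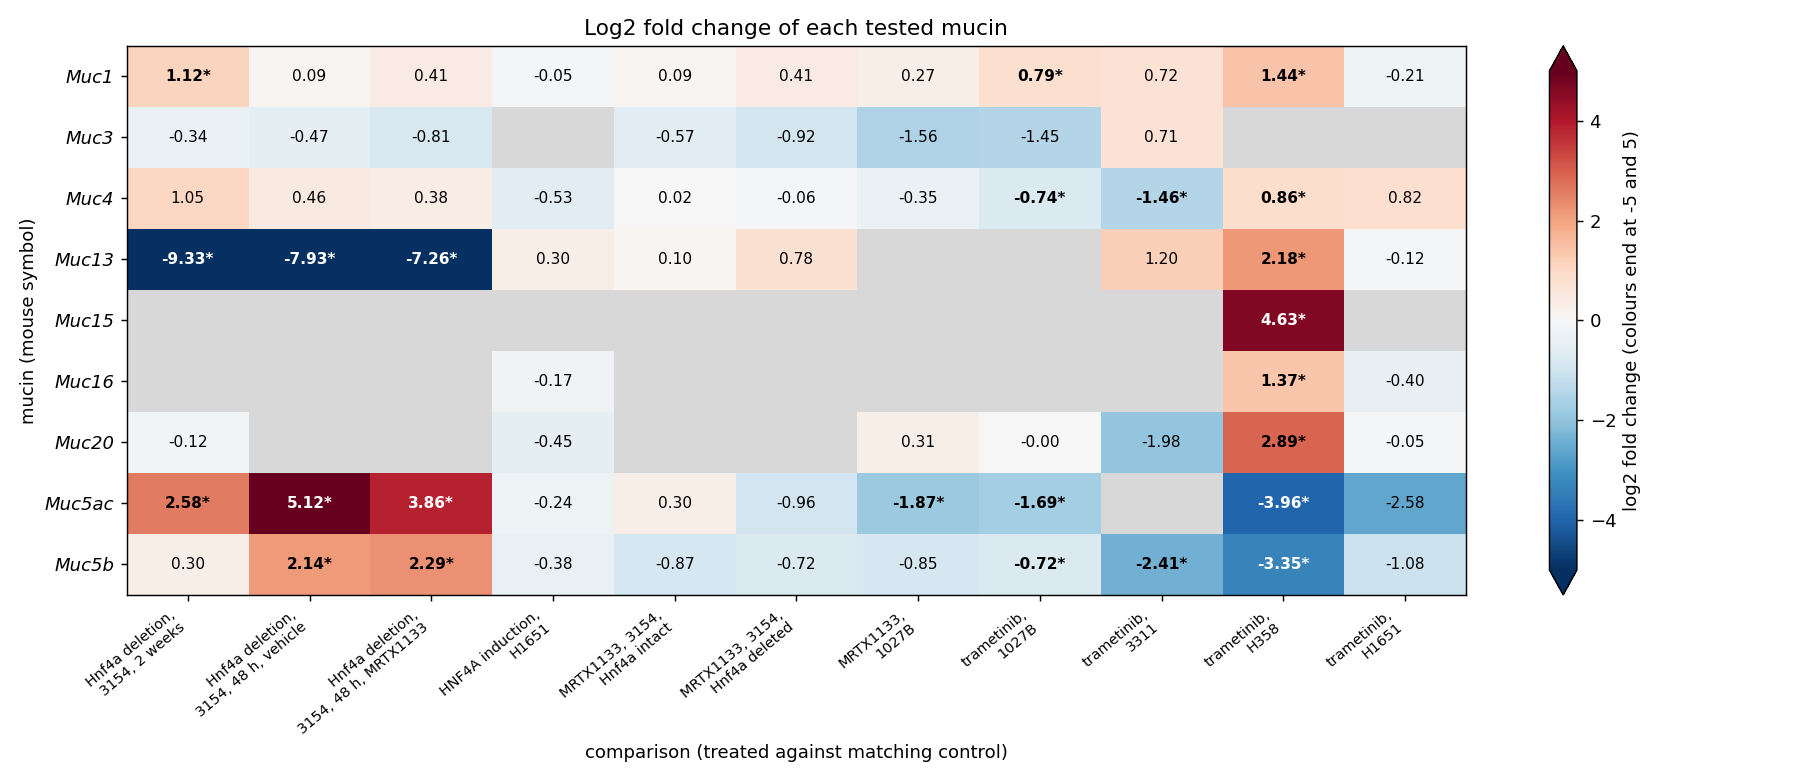
Log2 fold change of each tested mucin (rows, mouse symbols for both species) in each comparison of a treatment with its control (columns), with red for higher, blue for lower, grey for not tested or not analysed, and an asterisk for adjusted p under 0.05 in edgeR. Muc13 lies between -9.33 and -7.26 in the 3 deletion columns, and Muc5b is called lower under trametinib in 1027B, 3311 and H358.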

How the data were processed

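RNA from 22 mouse and 12 human libraries was selected for poly(A), made into strand-specific libraries and read from both ends, per the labels' protocols. Counts of reads per gene, as whole numbers, were deposited without scaling in 7 tables keyed by Ensembl ID. The submitters' processing notes name cutadapt 3.5, STAR 2.7.6a and featureCounts 1.6.3 and the builds mm10, mm39 and hg38, without saying which table used which mouse build. The columns of the 3311 table carry no line name and were given to 3311 from the name of the table.

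Each table was fitted alone in R 4.3.3 with edgeR 4.0.16 (filterByExpr, TMM factors, quasi-likelihood F-test), and p-values were adjusted by Benjamini-Hochberg over all genes tested. The 6 libraries of 1027B shared 1 fit, as did the 8 of the 48-hour 3154 table. Values are mean ± SD or log2 fold change ± SE with n = 2 per group, and an exact permutation test of 2 against 2 cannot go below p = 0.333. Limits and intervals for low counts hold counting error alone. Simulated counts served to test the fits. Alternatives were DESeq2 1.42.0, relative log expression factors, no count filter, fits of just 2 groups, a block for the replicate number and leaving out each library.

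Samples with the same replicate number deviated together in 1027B (correlations of 0.243, 0.372 and 0.414 over its 3 pairs of groups), so there the numbers were taken to pair the libraries. The correlation was 0.623 for trametinib in H1651 and 0.427 in the 2-week 3154 experiment. It was 0.318 in H358, 0.318 in H1651 with and without doxycycline and 0.126 in 3311. Each of those has 1 pair of groups. Over the 6 pairs of the 48-hour 3154 experiment it ran from -0.251 to 0.549. Blocked values are given where they change a call. No labels say that a number marks a shared culture.

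The members, gene lists and tests were chosen with earlier results of these data known. The text names the 10 members, Hnf4a, up to 2 called genes per list and comparison with the largest change at 10 CPM or more, from which a selection is printed, and the 3 genes most like each member called in the 48-hour 3154 table. Some items that this rule or the labels would name are not reported here.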

Additional observations from a re-analysis of the deposited data

Results flagged for a closer look

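Under trametinib Muc4 went in opposite directions in mouse and human cultures, with both treated libraries on the same side of both vehicle libraries in each culture. Its log2 fold change was -1.46 in 3311 (adjusted p = 0.0086) and -0.74 in 1027B (adjusted p = 0.0041), against 0.86 in H358 (adjusted p = 0.0070) and 0.82 in H1651, where it was not called by edgeR (adjusted p = 0.999) and had at most 17 counts per library. Muc20 went in opposite directions in 3311 and H358, with -1.98 in 3311 (adjusted p = 0.061) and 2.89 in H358 (adjusted p = 3.7e-05), and stood at -0.0042 in 1027B (adjusted p = 0.996) and -0.048 in H1651 (adjusted p = 0.999). The 3311 value ran from -3.77 to -1.20 when 1 library was left out, and the reservations on its overlap with Muc4 in the mouse and its near copy in the human genome apply to it. These differences between cultures were not tested, because the tables were normalized separately, the doses differ (50 nM in 3311, 10 nM in 1027B, 20 nM in the human lines) and species and culture cannot be told apart.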

How the results depend on the processing

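The 24 called mucin changes kept their direction under every alternative. The call was kept in 23 under relative log expression factors, 24 without the count filter, 23 by DESeq2, 24 with the replicate block, 10 of 11 in fits of only the 2 groups compared, and 16 when each library was left out in turn. With 2 libraries per group, leaving one out leaves a lone sample that is assumed to vary like the other groups. With the replicate block, genes called numbered 4563 for the 2-week deletion, 3048 for HNF4A induction, 6540 and 3515 for trametinib and MRTX1133 in 1027B, 2050 for MRTX1133 against trametinib and 1881 for trametinib in H1651; mucins called numbered 1 for induction (17.6% of all genes called), 4 in 3311 (6356 genes, 41.7%), 4 for MRTX1133 in 1027B (24.1%), 2 for the inhibitors against each other (14.1%), 3 for trametinib in H1651 (10.3%) and 1 for MRTX1133 after deletion (759 genes, 4.91%). The block also gave a call of Muc4 for the 2-week deletion (31.5% of all genes called). Muc3 was called with it for trametinib in 1027B (44.9%) and for the deletion under MRTX1133 (4388 genes, 28.4%). No label says that libraries are paired by number, in 1027B or elsewhere. The blocked adjusted p in H1651 was 5.7e-09 for MUC13 under induction, and 1.6e-05 for MUC5AC, 0.00098 for MUC5B and 0.0030 for MUC1 under trametinib. DESeq2 called 2337 genes for the 2-week deletion, 441 for induction, 1593 for MRTX1133 in 1027B (2 mucins), 675 for the inhibitors against each other, 47 for trametinib in H1651, 319 and 1291 for MRTX1133 with Hnf4a intact and after deletion, and 30 for the interaction. Fits of only the 2 groups gave 1 gene for the inhibitors against each other, 0 and 3932 (3 mucins) for MRTX1133 with Hnf4a intact and after deletion, 3154 for the vehicle deletion and 0 mucins for MRTX1133 in 1027B, and without the count filter 2 genes were called for trametinib in H1651. The cause of these differences was not tested.

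Values near 0 changed sign. Muc20 under trametinib in 1027B was 0.0050 with relative log expression factors, 0.030 with the block, 0.0021 by DESeq2 and 0.017 in the 2-group fit. Muc4 under MRTX1133 with Hnf4a intact was -0.010, -0.014 and -0.0029 with relative log expression factors, by DESeq2 and in the 2-group fit, and after deletion 0.039 with the block. 

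On leaving out 1 library at a time, these counts moved by over 1.5 times or these log2 fold changes changed sign (Muc13 and Muc20 in 3311 only moved by over 1.5 times). For Hnf4a deletion in 3154, 2 weeks the ranges were genes called 395 to 2790, Muc3 -1.33 to 0.24, Muc5b -0.26 to 0.77 and Muc20 -0.66 to 0.67. For HNF4A induction in H1651, 7 days the ranges were genes called 232 to 412, MUC1 -0.19 to 0.080, MUC5AC -0.65 to 0.20, MUC5B -0.88 to 0.00019, MUC16 -0.89 to 1.11 and MUC20 -1.001 to 0.53. For trametinib in 3311 the ranges were mucins called 2 to 4, genes called 3772 to 6298, Muc3 -0.086 to 1.48, Muc13 0.45 to 2.08 and Muc20 -3.77 to -1.20. For trametinib in 1027B the ranges were mucins called 1 to 3, genes called 1336 to 2754 and Muc20 -0.55 to 0.74. For MRTX1133 in 1027B the ranges were mucins called 0 to 2, genes called 138 to 349 and Muc20 -0.18 to 1.05. For MRTX1133 against trametinib in 1027B the ranges were genes called 0 to 2, Muc3 -0.94 to 1.24, Muc5ac -0.94 to 0.31, Muc5b -0.52 to 0.18 and Muc20 -0.079 to 0.86. For trametinib in H1651 the ranges were genes called 0 to 193, MUC1 -0.61 to 0.10, MUC13 -0.31 to 0.055, MUC16 -3.13 to 0.71 and MUC20 -0.26 to 0.14. For MRTX1133 in 3154 with Hnf4a intact the ranges were genes called 0 to 309, Muc1 -0.12 to 0.32, Muc3 -1.21 to 0.20, Muc4 -0.55 to 0.96, Muc5ac -0.051 to 0.75 and Muc13 -0.56 to 1.01. For MRTX1133 in 3154 after Hnf4a deletion the ranges were genes called 0 to 23 and Muc4 -0.42 to 0.37. For Hnf4a deletion in 3154 vehicle, 48-hour experiment the ranges were genes called 1668 to 5964, Muc1 -0.12 to 0.31, Muc3 -0.98 to 0.30 and Muc4 -0.11 to 1.40. For Hnf4a deletion in 3154 under MRTX1133 the ranges were genes called 1745 to 2805. For interaction of Hnf4a deletion and MRTX1133 in 3154 the ranges were Muc3 -1.11 to 0.29, Muc4 -1.03 to 0.48, Muc5b -0.64 to 0.66 and Muc13 -0.23 to 1.34. Without a change of sign, these log2 fold changes moved by over 1.5 times: for Hnf4a deletion in 3154, 2 weeks Muc4 0.41 to 1.50, for HNF4A induction in H1651, 7 days MUC4 -0.87 to -0.061, for trametinib in 3311 Muc1 0.25 to 1.11, for trametinib in 1027B Muc3 -2.80 to -0.76, for MRTX1133 in 1027B Muc1 0.091 to 0.51, Muc3 -2.38 to -0.98 and Muc5b -1.22 to -0.54, for trametinib in H1651 MUC4 0.42 to 1.57, for MRTX1133 in 3154 with Hnf4a intact Muc5b -1.38 to -0.087, for MRTX1133 in 3154 after Hnf4a deletion Muc3 -1.29 to -0.42, Muc5ac -1.63 to -0.51, Muc5b -1.47 to -0.24 and Muc13 0.069 to 1.22, for Hnf4a deletion in 3154 under MRTX1133 Muc3 -1.24 to -0.18 and Muc4 0.01 to 0.88, for interaction of Hnf4a deletion and MRTX1133 in 3154 Muc1 0.086 to 0.52 and Muc5ac -1.93 to -0.81.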
